A study of Caenorhabditis elegans with 6 samples.

Results

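The genes examined here are histone genes of Caenorhabditis elegans and cdl-1, the gene of the protein that binds the hairpin of histone mRNAs. They were chosen by name, as every gene whose name begins with his- plus cdl-1, and number 73 of the 46646 genes in the table. Of these, 66 code for the core histones H2A (17 genes), H2B (17), H3 (16) and H4 (16), 5 code for histones of the H3.3 type (his-69, his-70, his-71, his-72 and his-74), his-24 codes for a linker histone H1, and cdl-1 codes for the hairpin-binding protein. Histone genes with other names, such as the hil genes, htz-1 and hcp-3, are not among the 73. RNA was recovered by iCLIP, in which ultraviolet light links RNA to the proteins it touches in living embryos, the protein is immunoprecipitated through GFP, and the attached RNA fragments are sequenced. The 3 groups had 2 libraries each, all from mixed early embryos of worms grown at 20 °C that received 3 exposures of 400 mJ/cm2 of ultraviolet light, and all were immunoprecipitated with an antibody to GFP. In the MEG-3::GFP embryos the meg-3 gene carried GFP at its own locus, MEG-3 being a disordered protein that scaffolds P granules, the RNA granules of the worm germline. In the PGL-1::GFP embryos the pgl-1 gene carried GFP at its own locus, PGL-1 being an RGG-domain protein of the liquid core of the same granules. In the GFP embryos GFP alone was expressed from a transgene with the maternal pie-1 promoter, in the background of the unc-119(ed3) mutation.

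Histones wrap nuclear DNA, and an embryo that divides rapidly needs large amounts of the core types. Core histone genes of the replication-dependent kind lie in clusters as near-identical copies, lack introns, and make mRNAs that end in a hairpin in place of a poly(A) tail, to which the protein CDL-1 binds. H3.3-type histones are laid down outside DNA replication, and linker histone binds the DNA between nucleosomes. In worms, processing of core histone mRNAs has been tied to the Argonaute CSR-1.

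The libraries differed widely in depth, which limits what can be said of single histone genes. Gene reads totalled 225609 and 280007 with MEG-3::GFP, 21180 and 92593 with PGL-1::GFP, and 26531 and 14040 with GFP. Where no read was counted up to 3 may be missed, and 3 reads are worth 13.3 and 10.7 CPM (counts divided by the library total and scaled to 1000000) with MEG-3::GFP, 141.6 and 32.4 CPM with PGL-1::GFP, and 113 and 214 CPM with GFP. PGL-1::GFP replicate 1 stood apart, with reads on only 2.20% of all genes against 17.1% in PGL-1::GFP replicate 2, and results that rest on it are given per library. The 8 maternal markers of the early embryo were read at a sum of 2493 to 24760 CPM in every library, with 35 reads in GFP replicate 2, and all 3 sperm markers were at 0. The study calls its MEG-3::GFP experiments independent, and whether the libraries of each group came from separate cultures is not given in the labels, so p-values measure only the spread between these libraries. The GFP libraries carry names of another kind than the others. If those names mark a batch, it cannot be told apart from the control. Intervals on shares of reads are 95% Wilson intervals and cover counting error only.

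Of the 73 genes, 48 were read in some library and 25 in none. All 25 unread genes were core histone genes (9 of 17 H2A, 7 of 17 H2B, 4 of 16 H3 and 5 of 16 H4 genes). A further 19 genes had 1 to 10 reads over the 6 libraries together, and 29 had more than 10. The H3.3-type genes, his-24 and cdl-1 all had reads. Reads that fit several near-identical copies can be lost in counting, and the counting options and the treatment of such reads are not given in the sources used here, so a count of 0 on a core histone gene does not show that its mRNA was missing from the library.

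Core histone genes took 0.383% (0.358 to 0.409%) and 0.291% (0.272 to 0.312%) of the reads with MEG-3::GFP, from 864 and 816 reads. In PGL-1::GFP they took 0.0189% (0.00735 to 0.0486%) in replicate 1, from 4 reads, and 0.688% (0.637 to 0.743%) in replicate 2, from 637 reads. In GFP the shares were 0.0490% (0.0286 to 0.0838%) and 0.321% (0.240 to 0.429%), from 13 and 45 reads. The means were 0.337% ± 0.0648 with MEG-3::GFP, 0.353% ± 0.473 with PGL-1::GFP and 0.185% ± 0.192 with GFP (SD, n = 2 libraries each). The MEG-3::GFP libraries were the closest pair, although their counting intervals did not overlap. The 3 groups were not separated, since GFP replicate 2 lay between the MEG-3::GFP libraries. At the share seen in replicate 2, PGL-1::GFP replicate 1 would have held 146 core histone reads where 4 were counted, so the gap between these libraries is far beyond counting error.

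**Figure D1:**
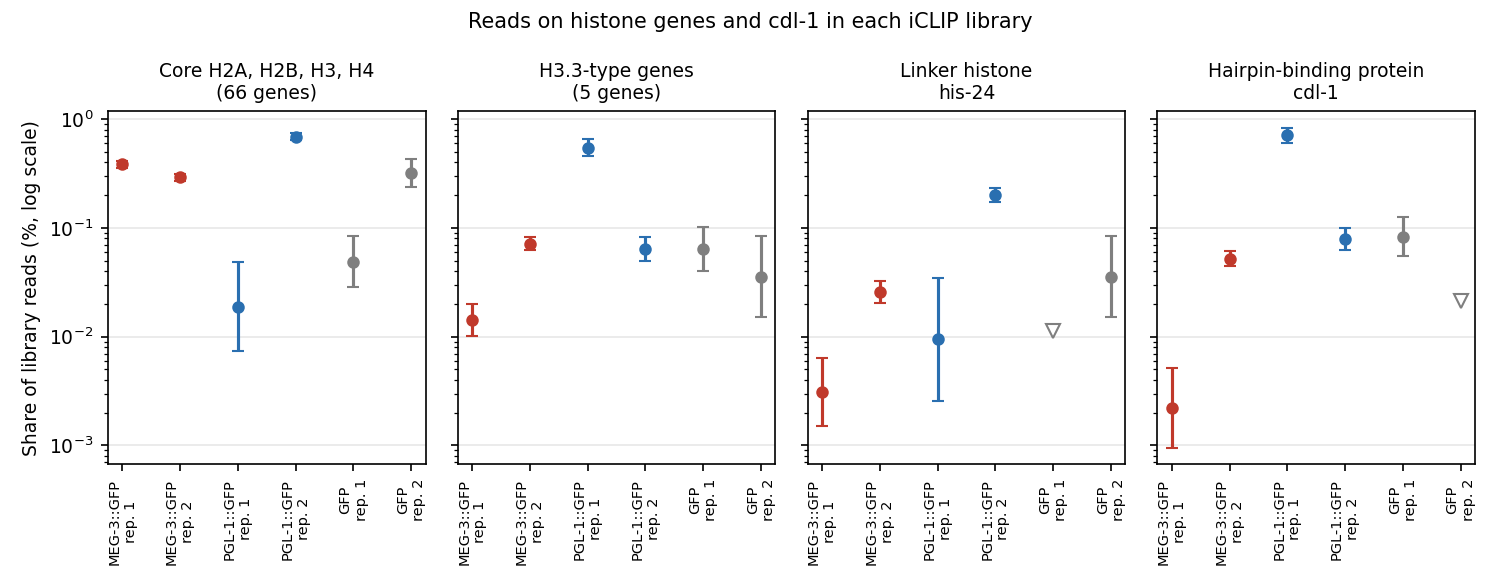
Share of library reads (percent, log axis) on core histone genes, H3.3-type genes, his-24 and cdl-1 in each of the 6 libraries, with 95% Wilson intervals as bars and open triangles at the share that 3 reads are worth where no read was counted. The core histone share was 0.383 and 0.291% with MEG-3::GFP but 0.0189 and 0.688% with PGL-1::GFP. The shares of cdl-1 and of the H3.3-type genes were highest in PGL-1::GFP replicate 1, where the H3.3-type reads were all on his-72.

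The GFP value rested on few genes. In GFP replicate 2, 29 of the 45 core histone reads came from his-1, an H4 gene (18 reads), and his-12, an H2A gene (11 reads). Without his-1 and his-12, a choice made after the values were seen, the core histone share was 0.378 and 0.275% with MEG-3::GFP, 0.0189 and 0.675% with PGL-1::GFP, and 0.0264 and 0.114% with GFP. GFP replicate 2 also had the highest level of the list of 7 markers of later larval or adult tissue, at 2208 CPM against 339 CPM in GFP replicate 1, with 0 to 281 CPM in the other libraries. Of its 31 reads on that list, 27 were on the muscle myosin gene unc-54, and the 3 vitellogenin genes of the list had at most 1 read in any library. The part of this RNA in the histone counts was not tested.

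By type, H3 and H4 reads took nearly the same share in both MEG-3::GFP libraries. Core H3 genes took 0.134% ± 0.00205 with MEG-3::GFP, 0.125% ± 0.170 with PGL-1::GFP and 0.0339% ± 0.0427 with GFP (SD, n = 2 each). Core H4 genes took 0.0705% ± 0.00179 with MEG-3::GFP, 0.0906% ± 0.115 with PGL-1::GFP and 0.101% ± 0.0995 with GFP. For H2A the MEG-3::GFP libraries disagreed, with 0.119 and 0.0386%, beyond their counting intervals (0.105 to 0.134% and 0.0319 to 0.0466%). H2B took 0.0603 and 0.0486% with MEG-3::GFP, 0 and 0.168% with PGL-1::GFP, and 0.00754 and 0.00712% with GFP. H2B was the core type with the fewest reads over both GFP libraries, 2 and 1.

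Because H3 genes are longer than H4 genes, levels between types were compared per length, over all genes of a type, as CPM per kilobase of gene. Most H3 genes span 411 bases, H2A genes 384, H2B genes 369 or 372 and H4 genes 312, which is coding length, and 6 core genes have another length (his-35, his-37, his-39, his-41, his-57 and his-73). On this scale H3 stood at 209 and 214 with MEG-3::GFP, H4 at 139 and 134, H2A at 154 and 50.1, and H2B at 92.8 and 74.7. H3 was the highest of the 4 types of both MEG-3::GFP libraries and also of PGL-1::GFP replicate 2, where H3 stood at 389, H4 at 331, H2B at 259 and H2A at 133. Without his-59, a choice made after the values were seen, H3 stood at 123 and 129 with MEG-3::GFP and at 244 in PGL-1::GFP replicate 2. These values lie below H4 in each, but H4 kept its own top genes. Those were his-60 with 106 reads in MEG-3::GFP replicate 1 and his-31 with 62 in MEG-3::GFP replicate 2. The order with the top gene of every type left out was not computed. In GFP replicate 1 H3 was the lowest type, at 5.98 from 1 read, with 2 reads each on H2A and H2B. H4 was the highest there, at 58.2 from 8 reads, 6 of them on his-1. In GFP replicate 2 the values were H4 at 330, H3 and H2A at 102 each and H2B lowest. Of the 24 H4 reads there, 18 were on his-1, and the order in GFP without his-1 was not computed. All these values divide by the length of every gene of a type, also of genes with no read. Those were 9 of 17 H2A genes (with his-57, of 1314 bases), 7 of 17 H2B, 4 of 16 H3 and 5 of 16 H4 genes. Reads on them may have been lost in counting, and the order over genes with a read alone was not computed.

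A few genes carried most core histone reads. The 5 core genes with most reads in a library held 61.2% of its core reads in MEG-3::GFP replicate 1, 51.7% in MEG-3::GFP replicate 2 and 52.9% in PGL-1::GFP replicate 2. Genes lying within 20000 bases of the next were taken as a cluster (positions from RefSeq, WBcel235). This gave 19 loci, of which 13 hold a core gene. The cluster on chromosome IV from 7485834 to 7488659, with his-59 (H3), his-60 (H4), his-61 (H2A) and his-62 (H2B), had the most reads, with 335 and 260 with MEG-3::GFP, 3 and 230 with PGL-1::GFP, and 3 and 7 with GFP. It is followed by the cluster of his-1, his-2, his-3 and his-4 on chromosome V from 16040144 to 16042831, with 106 and 150 reads with MEG-3::GFP, 0 and 108 with PGL-1::GFP, and 6 and 18 with GFP. In these clusters of 4 genes, each with 1 gene per core type, every gene had reads.

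Other clusters of similar make-up had almost none. The 13 genes of the cluster on chromosome II from 13817760 to 13828697 (his-9 to his-16, his-25, his-26 and his-42 to his-44) had 35 reads in all, and 8 of the 13 had no read. All 6 genes of the cluster on chromosome V from 8847393 to 8854053 (his-49 to his-54) were at 0 in every library. The neighbouring cluster from 8889488 to 8898539 (8 genes) had 32 reads, 27 of them on the H4 gene his-18 in PGL-1::GFP replicate 2, and 6 of its 8 genes had none. How many copies of each gene are identical in sequence was not measured here, so unread mRNA and unassigned reads cannot be told apart.

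**Figure D2:**
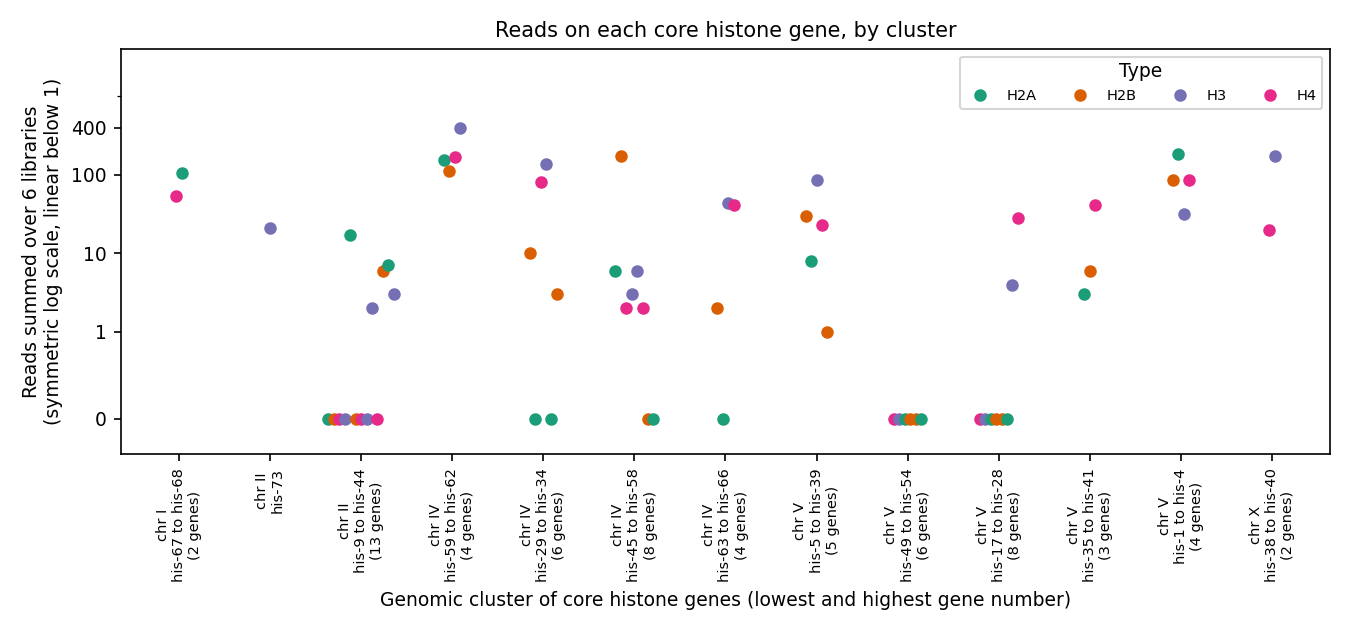
Reads summed over the 6 libraries (vertical axis, symmetric log scale) for each of the 66 core histone genes, placed by genomic cluster and coloured by type. All 4 genes of the his-59 to his-62 cluster and of the his-1 to his-4 cluster had reads, whereas all 6 genes from his-49 to his-54 and 8 of 13 in the chromosome II cluster were at 0.

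The H3 gene his-59 (WBGene00001933, chromosome IV from 7488249 to 7488659) had more reads than any other histone gene. It had 135 and 165 reads with MEG-3::GFP, 0 and 94 with PGL-1::GFP, and 0 and 6 with GFP. In CPM, the MEG-3::GFP libraries gave 598 (506 to 708) and 589 (506 to 686), each above the GFP libraries at 0 (up to 145) and 427 (196 to 932), although the interval of GFP replicate 2 reaches past both. The H3 gene his-40 (WBGene00001914, chromosome X from 7310110 to 7310520) had 69 and 87 reads with MEG-3::GFP, 1 and 17 with PGL-1::GFP, and 0 and 2 with GFP. Its CPM was 306 and 311 with MEG-3::GFP, 47.2 and 184 with PGL-1::GFP, and 0 and 142.5 with GFP. These genes alone among the histone genes had 60 reads or more in both MEG-3::GFP libraries, the background level that the study's methods set for this table.

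The other core genes that reached 60 reads did so in a single library. Among H2A genes, his-3 had 98 and 56 reads with MEG-3::GFP, 0 and 28 with PGL-1::GFP and none with GFP, and his-61 had 84 and 38, 1 and 31, and 2 and 0 in the same order of groups. The H2A gene his-68 had 78 and 8 reads with MEG-3::GFP, 0 and 20 with PGL-1::GFP and none with GFP. Each was thus higher in MEG-3::GFP replicate 1 than in replicate 2. Among H2B genes, his-48 had 106 and 51 reads with MEG-3::GFP, 0 and 17 with PGL-1::GFP, and 0 and 1 with GFP, and his-62 had 10 and 34 with MEG-3::GFP, 0 and 66 with PGL-1::GFP, and 1 and 0 with GFP.

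The remaining H3 and H4 genes of this kind showed how far the MEG-3::GFP libraries diverge gene by gene even where the type totals match. The H3 gene his-6 had 75 and 5 reads with MEG-3::GFP, 0 and 7 with PGL-1::GFP and none with GFP, whereas the H3 gene his-32 had 5 and 52 with MEG-3::GFP, 0 and 79 with PGL-1::GFP and none with GFP. The H4 gene his-60 had 106 and 23 reads with MEG-3::GFP, 2 and 39 with PGL-1::GFP, and 0 and 1 with GFP. The H4 gene his-31 had 0 and 62 with MEG-3::GFP, 0 and 18 with PGL-1::GFP and none with GFP. These opposite tilts largely cancel in the sum of a type.

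Across the 66 core genes, Spearman's rho of the counts was 0.674 between the MEG-3::GFP libraries (24 genes read in both), 0.617 between MEG-3::GFP replicate 1 and PGL-1::GFP replicate 2 (22 genes), and 0.852 between MEG-3::GFP replicate 2 and PGL-1::GFP replicate 2 (30 genes). MEG-3::GFP replicate 2 thus ranked the core genes more like a PGL-1::GFP library than like its own replicate. These values describe genes that share libraries and the many ties at 0, and carry no test. Detection followed the same lines, with 3 core genes read in MEG-3::GFP replicate 1 only and 12 in MEG-3::GFP replicate 2 only. In PGL-1::GFP, 31 core genes were read in replicate 2 only and none in replicate 1 only.

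**Figure D3:**
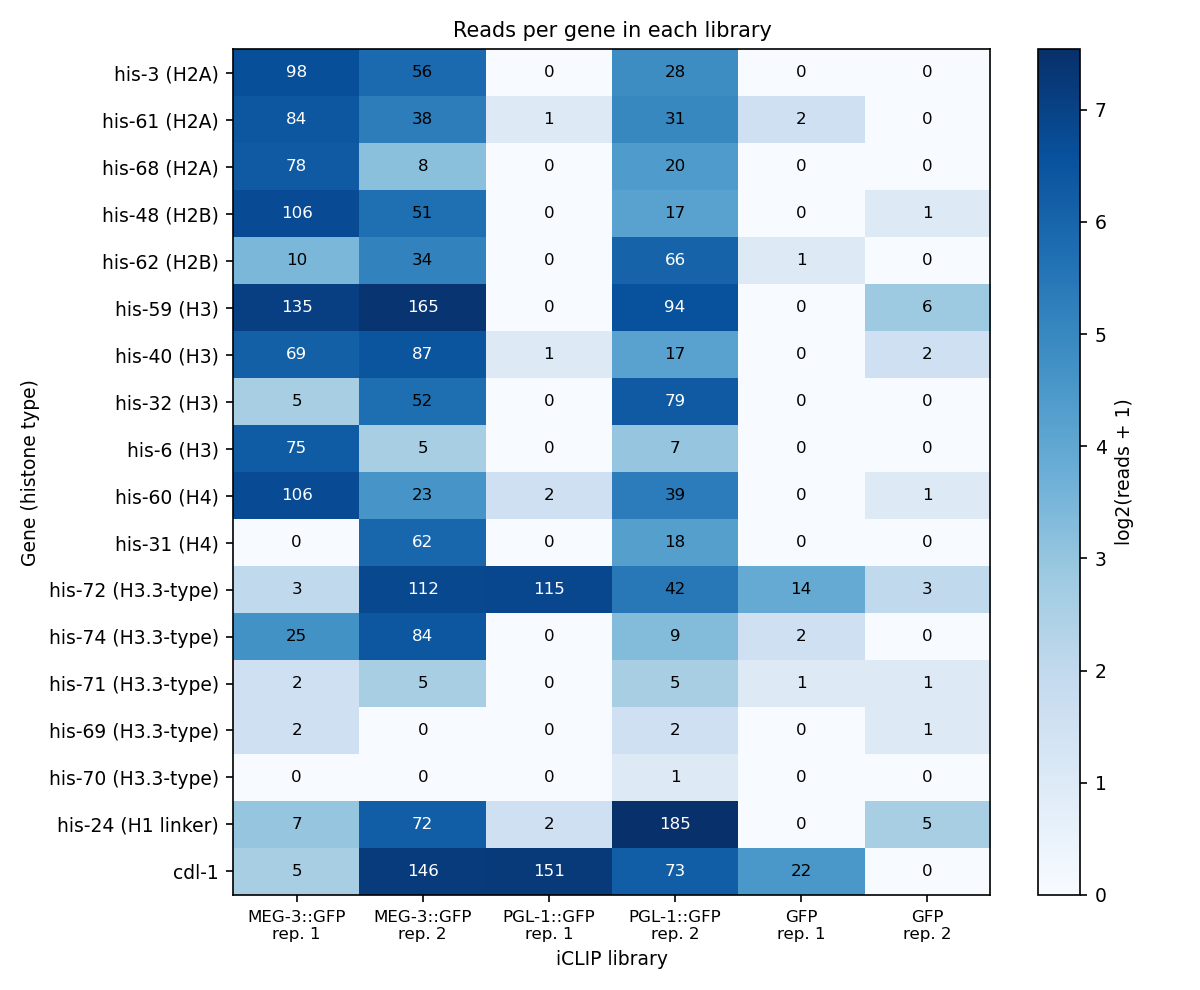
Read counts (numbers, shaded by log2 of the count plus 1) in each library for the 15 genes with 60 reads or more in at least 1 library and the remaining H3.3-type genes, grouped by type. The core genes were read with MEG-3::GFP and PGL-1::GFP replicate 2 but had at most 2 reads in PGL-1::GFP replicate 1, where his-72 and cdl-1 had 115 and 151.

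The H3.3-type gene his-72 and cdl-1 were highest in PGL-1::GFP replicate 1, where core genes had at most 2 reads. The gene his-72 (WBGene00001946, chromosome III from 12367475 to 12369050) had 3 and 112 reads with MEG-3::GFP, 115 and 42 with PGL-1::GFP, and 14 and 3 with GFP. In CPM this was 13.3 (4.52 to 39.1) and 400.0 (333 to 481) with MEG-3::GFP, 5430 (4526 to 6513) and 454 (336 to 613) with PGL-1::GFP, and 528 (314 to 886) and 214 (72.7 to 628) with GFP. Both PGL-1::GFP values lay above both MEG-3::GFP values, but the intervals at 454 and 400.0 CPM overlap. The lower PGL-1::GFP value lay between the GFP values. The hairpin-binding gene cdl-1 (WBGene00000411, chromosome II from 10785452 to 10787272) had 5 and 146 reads with MEG-3::GFP, 151 and 73 with PGL-1::GFP, and 22 and 0 with GFP. Its CPM was 22.2 (9.47 to 51.9) and 521 (443 to 613) with MEG-3::GFP, 7129 (6082 to 8355) and 788 (627 to 991) with PGL-1::GFP, and 829 (548 to 1255) and 0 (up to 274) with GFP.

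In PGL-1::GFP replicate 1 his-72 and cdl-1 together made up 266 of the 272 reads on all 73 genes (97.8%). Their part was 0.881 and 20.9% with MEG-3::GFP, 97.8 and 12.05% with PGL-1::GFP, and 69.2 and 5.45% with GFP. Among all genes of PGL-1::GFP replicate 1, cdl-1 ranked 8 and his-72 ranked 47 by reads, against 124 and 375 in PGL-1::GFP replicate 2. By read count the libraries fall in the same order for both genes, except that his-72 had 3 reads in MEG-3::GFP replicate 1 and in GFP replicate 2 alike.

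The other H3.3-type genes were low in PGL-1::GFP replicate 1. The gene his-74 (chromosome V from 12659704 to 12660330) had 25 and 84 reads with MEG-3::GFP, 0 and 9 with PGL-1::GFP, and 2 and 0 with GFP. Its CPM was 111 (75.1 to 164) and 300 (242 to 371) with MEG-3::GFP. With PGL-1::GFP it was 0 (up to 181) and 97.2 (51.1 to 185), and with GFP 75.4 (20.7 to 275) and 0 (up to 274). The MEG-3::GFP values were the highest, but the interval of replicate 1 overlapped those of all PGL-1::GFP and GFP libraries. That of replicate 2 overlapped those of both GFP libraries. The gene his-71 had 2 and 5 reads with MEG-3::GFP, 0 and 5 with PGL-1::GFP, and 1 in each GFP library. The genes his-69 and his-70, which lie side by side on chromosome III, had 5 and 1 reads over all libraries together. As a class, H3.3-type genes took 0.0142 and 0.0718% of reads with MEG-3::GFP, 0.543 and 0.0637% with PGL-1::GFP, and 0.0641 and 0.0356% with GFP, and the PGL-1::GFP value of replicate 1 was his-72 alone.

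The linker histone gene his-24 (WBGene00001898, chromosome X from 14490094 to 14491119) had 7 and 72 reads with MEG-3::GFP, 2 and 185 with PGL-1::GFP, and 0 and 5 with GFP. It ranked 12 among all genes in PGL-1::GFP replicate 2 and 595 in PGL-1::GFP replicate 1. Its share was 0.00310 and 0.0257% with MEG-3::GFP, 0.00944 and 0.200% with PGL-1::GFP, and 0 and 0.0356% with GFP. The high value with PGL-1::GFP thus came from the library in which cdl-1 and his-72 were the lower of their pair.

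**Figure D4:**
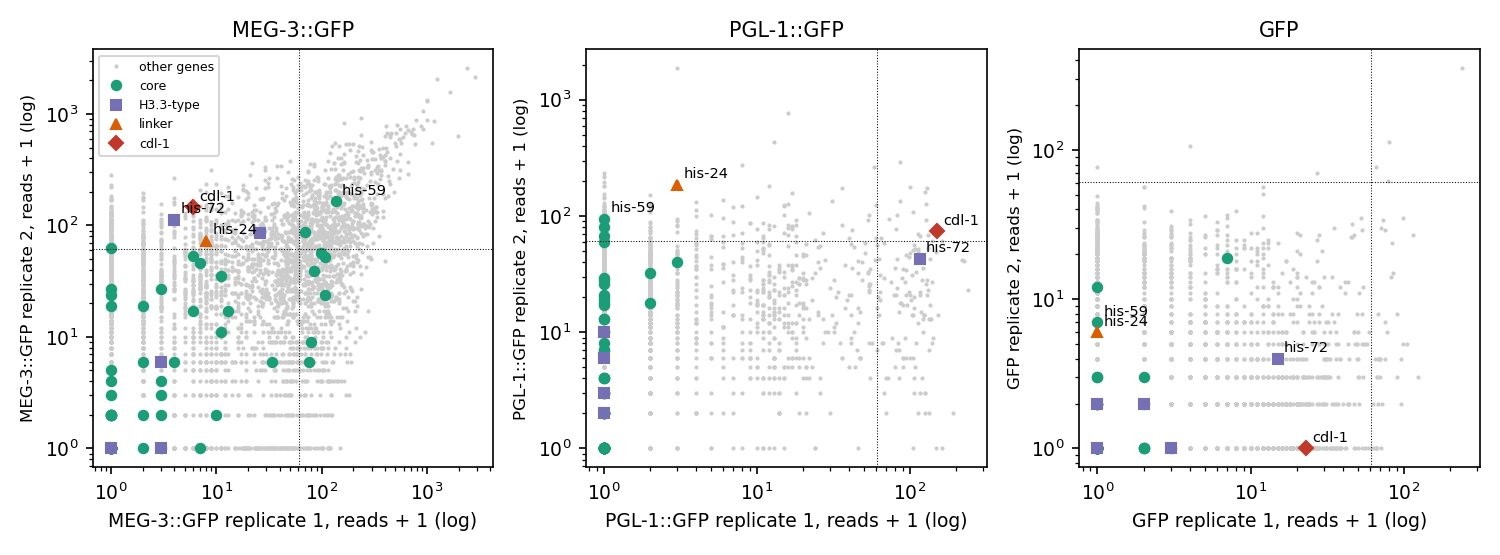
Reads plus 1 in replicate 1 (horizontal, log axis) against replicate 2 (vertical, log axis) for the MEG-3::GFP, PGL-1::GFP and control GFP libraries, with all genes that had a read in the group in grey, histone genes and cdl-1 in colour, and dotted lines at 60 reads. Only his-59 and his-40 lay past both lines with MEG-3::GFP and only cdl-1 with PGL-1::GFP, and no histone gene reached either line with GFP.

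The number of histone genes past 60 reads was set against that of all genes. Of the 48 with a read, 2 (4.17%) had 60 reads in both MEG-3::GFP libraries, namely his-59 and his-40, against 7.09% of the 9268 genes with a read in any library. In PGL-1::GFP it was 1 of 48 (2.08%), cdl-1, against 0.194% of all genes, and with GFP 0 of 48 against 0.0432%. In at least 1 library of a group, 13 of 48 (27.1%) reached 60 reads with MEG-3::GFP, against 18.9% of all genes, 6 (12.5%) with PGL-1::GFP, against 3.29%, and 0 with GFP, against 0.475%. Over all libraries it was 15 (31.2%), against 20.0%. At 60 reads the level is 266 and 214 CPM with MEG-3::GFP, 2833 and 648 CPM with PGL-1::GFP, and 2262 and 4274 CPM with GFP, so the threshold asks for a higher level in the shallower libraries.

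By CPM, 23 of the 48 histone genes with a read (47.9%) were higher in both MEG-3::GFP libraries than in either GFP library, against 12.3% of all genes with a read. They were 22 core genes and his-74. Most had no GFP read at all, and at the GFP depth such a gene may lie well above its MEG-3::GFP value. When the lower MEG-3::GFP value had also to exceed what 3 reads are worth in the shallower GFP library, a rule added after the values were seen, 2 of 48 remained (4.17%, his-59 and his-40), against 4.39% of all genes. In the opposite direction, his-1 and his-71 (4.17%) were lower in both MEG-3::GFP libraries than in either GFP library, against 4.73% of all genes. For his-1, an H4 gene, the counts were 6 and 45 with MEG-3::GFP, 0 and 12 with PGL-1::GFP, and 6 and 18 with GFP.

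In PGL-1::GFP, 1 of 48 (2.08%, his-60) was higher in both libraries than in either GFP library, against 2.61% of all genes, and with the limit of 3 reads it was 0 of 48 against 0.734%. The gene his-1 alone (2.08%) was lower in both PGL-1::GFP libraries than in either GFP library, against 4.53% of all genes. These counts are set by PGL-1::GFP replicate 1, since 33 of 48 (68.8%) were higher than in either GFP library when that library was left out, as were 53.5% of all genes. Between the tagged proteins, 7 of 48 (14.6%) were higher in both MEG-3::GFP than in either PGL-1::GFP library, against 10.2% of all genes, of which his-40 and his-74 had more than 60 reads in a library. Only cdl-1 and his-72 (4.17%) were lower in both MEG-3::GFP than in either PGL-1::GFP library, against 1.93% of all genes. For his-72 the nearest values, 400 and 454 CPM, had overlapping intervals (333 to 481 and 336 to 613). With 2 libraries against 2, a two-sided exact permutation test cannot give a p below 0.333, so none was run.

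Fitted together with all genes, no histone gene passed the test between groups. Of the 73 genes, 13 passed edgeR's filter on low counts among 2033 tested (cdl-1, his-1, his-3, his-24, his-31, his-32, his-40, his-48, his-59, his-60, his-61, his-68 and his-72). None was called at an adjusted p under 0.05 when MEG-3::GFP was set over GFP, PGL-1::GFP over GFP or MEG-3::GFP over PGL-1::GFP (quasi-likelihood test of edgeR, adjusted by Benjamini-Hochberg over all tested genes, 0 of 13 in each), against 0.0%, 0.0% and 0.0% of the 2033 genes. At an unadjusted p under 0.05 it was again 0 of 13 in each contrast, against 63, 16 and 26 of all genes. DESeq2, run as an alternative, also called 0 histone genes in each contrast after adjustment. The lowest unadjusted edgeR p among them was 0.0868 (his-3) for MEG-3::GFP over GFP, 0.0657 (his-32) for PGL-1::GFP over GFP and 0.148 (cdl-1) for MEG-3::GFP over PGL-1::GFP.

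None of the fitted changes passed the test. For MEG-3::GFP over GFP the fitted log2 value was 1.88 (SE 2.52) for his-59 and 2.57 (SE 3.03) for his-40, both with an adjusted p of 0.999 (edgeR). For PGL-1::GFP over GFP it was 2.88 (SE 2.16) for cdl-1, 2.61 (SE 2.26) for his-72 and 2.90 (SE 2.61) for his-24, each with an adjusted p of 0.999 (edgeR). For MEG-3::GFP over PGL-1::GFP it was -3.13 (SE 2.16) for cdl-1 and -3.07 (SE 2.27) for his-72, with an adjusted p of 1 (edgeR). The coefficient of variation between libraries that edgeR estimated over all genes was 1.39, so changes of this size were not detectable.

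Of the 13 tested histone genes, 10 had a positive log2 fold change for MEG-3::GFP over GFP (76.9%, against 64.5% of all tested genes), 12 for PGL-1::GFP over GFP (92.3%, against 48.9%) and 9 for MEG-3::GFP over PGL-1::GFP (69.2%, against 66.7%). Their median was 2.86, 2.88 and 0.26 in these contrasts, against 0.73, -0.05 and 0.88 over all tested genes. Since 4 of the 13 had no GFP read, the medians were also taken with each group's summed reads set to at least 3, which gave 1.55, 1.87 and -0.15, against 0.61, 0.06 and 0.55 over all tested genes. The contrasts with GFP share the GFP libraries, and the genes that passed the filter did so through their high libraries, so these medians are a description of 13 genes and not of the 73. All tested histone genes but cdl-1 and his-72 had at most 2 reads in PGL-1::GFP replicate 1. Their fitted values for PGL-1::GFP over GFP thus rest on PGL-1::GFP replicate 2. By CPM, 1 of 48 was higher in both PGL-1::GFP libraries than in either GFP library, against 2.61% of all genes.

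Among 26 genes that act with histones, all with a read, 10 (38.5%) reached 60 reads in some library, against 20.0% of all genes with a read, and 3 (11.5%) did so in both MEG-3::GFP libraries, against 7.09%. These 3 were hil-4, which codes for a linker histone relative (157 and 228 reads with MEG-3::GFP, 16 and 24 with PGL-1::GFP, 15 and 14 with GFP), htz-1, which codes for the histone variant H2A.Z (64 and 146, 0 and 75, and 82 and 23), and the Argonaute gene csr-1 (74 and 130, 1 and 10, and 0 and 0). In CPM, hil-4 stood at 696 and 814 with MEG-3::GFP and at 565 and 997 with GFP. The gene htz-1 stood at 284 and 521 with MEG-3::GFP, below both GFP libraries at 3091 and 1638. Of these 3, only csr-1 was higher in both MEG-3::GFP libraries than in either GFP library, at 328 and 464 with no GFP read. The genes hil-2 and hil-7, also of linker histone relatives, had more reads in MEG-3::GFP replicate 1 than in MEG-3::GFP replicate 2. The first had 187 and 6 reads with MEG-3::GFP, 0 and 41 with PGL-1::GFP and none with GFP, and hil-7 had 232 and 9 with MEG-3::GFP, 0 and 17 with PGL-1::GFP, and 2 and 17 with GFP.

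The histone chaperone genes that reached 60 reads differed between the MEG-3::GFP libraries. Of these, chaf-2 and hira-1 had more reads in MEG-3::GFP replicate 1, and lin-53 and hmg-3 had more in MEG-3::GFP replicate 2. The chromatin assembly factor gene chaf-2 had 151 and 50 reads with MEG-3::GFP, 1 and 4 with PGL-1::GFP, and 3 and 1 with GFP, and hira-1, of the H3.3 chaperone HIRA, had 72 and 5, 0 and 4, and 2 and 0. In contrast lin-53, of a histone-binding protein of the RbAp48 family, had 0 and 51 with MEG-3::GFP, 0 and 71 with PGL-1::GFP, and 12 and 0 with GFP, and hmg-3, of a FACT subunit, had 18 and 77, 0 and 4, and 1 and 0. In CPM, lin-53 was lower in MEG-3::GFP replicate 2 (182) than in PGL-1::GFP replicate 2 (767) and GFP replicate 1 (452). The RNA-dependent RNA polymerase gene ego-1 had 45 and 216 reads with MEG-3::GFP, 0 and 23 with PGL-1::GFP, and 7 and 0 with GFP. The remaining 16 genes of the list stayed below 60 reads in every library, and the centromeric H3 gene hcp-3 had 0 and 15 with MEG-3::GFP, 0 and 4 with PGL-1::GFP, and 3 and 13 with GFP. In PGL-1::GFP replicate 1 the 26 genes had at most 16 reads each. The histone chaperone gene nasp-1 had its highest level there, as cdl-1 and his-72 did, with 5 and 8 reads with MEG-3::GFP, 16 and 5 with PGL-1::GFP, and 3 and 4 with GFP.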

How the data were processed

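The authors removed adaptors and barcodes, used HISAT2 (version 2.1.0 per the labels) for alignment to ws235, removed PCR duplicates and obtained gene counts from HTSeq-count. Counts were deposited without normalization. Counting options and annotation are not given in the sources used here. The 47085 rows hold 46646 genes, since 438 identifiers stand on several rows with identical counts and were used once. Members were found by name, assigned to histone types from a fixed list, and placed by sequence name in the RefSeq table of WBcel235 (73 of 73 matched). No genome, protein or promoter sequence was used. The members and lists were chosen with earlier results of these data known. Genes named are those with 60 reads or more in any library, cdl-1, his-24 and the H3.3-type genes, genes past the adjusted threshold, and genes of the partner list at 60 reads. The genes his-1, his-12, his-18, hcp-3 and nasp-1 were named after their values were seen. CPM and shares are relative to each library's total on genes, so they compare the make-up of libraries and not the amount of RNA. Groups were compared in 1 fit of 6 libraries by the quasi-likelihood test of edgeR 4.0.16 (R 4.3.3) with TMM, the default filter and Benjamini-Hochberg adjustment. The script was tested on simulated data, where recovery was required only at a lower spread between libraries than the fitted coefficient of variation of 1.39. That check does not show its power on these data. A standard error (SE) was derived from the F statistic, as the size of the log2 fold change over the root of F. DESeq2 1.42.0 was an alternative. Python 3.11.15, pandas 2.3.3, NumPy 2.4.6, SciPy 1.17.1 and matplotlib 3.10.9 were used for the rest.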

Additional observations from a re-analysis of the deposited data

How the results depend on the processing

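The number of histone genes called by edgeR's quasi-likelihood test stayed at 0 in all 3 contrasts under every normalization, filter, choice of groups and left-out library, and with DESeq2, whose adjusted p called 3 of all genes for MEG-3::GFP over GFP and 1 for PGL-1::GFP over GFP. With the libraries of MEG-3::GFP and GFP alone, edgeR called 2 of all genes. The log2 fold changes given for single genes kept their sign wherever the gene passed the filter, which his-40 did not without MEG-3::GFP replicate 1, MEG-3::GFP replicate 2 or PGL-1::GFP replicate 2, nor his-24 in the fit of PGL-1::GFP and GFP alone or without PGL-1::GFP replicate 2. With a library left out they ran from 1.26 to 9.28 for his-59 and from 1.89 to 8.34 for his-40 (MEG-3::GFP over GFP), and from 1.22 to 11.1 for cdl-1, 0.76 to 3.67 for his-72 and 2.28 to 10.2 for his-24 (PGL-1::GFP over GFP). The values near 10 come from a GFP group left with no read and are no bounds. For MEG-3::GFP over PGL-1::GFP they ran from -6.63 to -1.56 for cdl-1 and from -6.82 to -1.16 for his-72.

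The 2 genes with 60 reads in both MEG-3::GFP libraries became 5 at 30 reads, 7 at 20 reads, 13 with either library, 0 after scaling to the median total, and 7 to 8 with a library left out. The 1 gene in both PGL-1::GFP libraries became 2 at 30 reads, 2 at 20 reads, 6 with either library, 0 after scaling, and 2 (without replicate 2) to 5 (without replicate 1). The 23 genes higher in each MEG-3::GFP than in each GFP library became 2 with the limit of 3 reads, added after the data were seen, and 24 to 34 with a library left out, most without MEG-3::GFP replicate 1. For PGL-1::GFP the 1 gene became 2 with TMM totals (cdl-1 and his-72 in place of his-60), 0 with the limit of 3 reads, 33 without PGL-1::GFP replicate 1, and 3 to 4 without another library. The TMM factor was 0.774 for MEG-3::GFP replicate 2 and 0.993 for PGL-1::GFP replicate 2. Whether cdl-1 and his-72 stay lower in both MEG-3::GFP than in either PGL-1::GFP library with TMM totals was not computed. The core histone share left with 1 library ran from 0.291 to 0.383% in MEG-3::GFP, 0.0189 to 0.688% in PGL-1::GFP and 0.0490 to 0.321% in GFP, with the higher value of PGL-1::GFP and of GFP each without replicate 1 of that group. Other denominators, and leaving out his-59, moved no group's mean share beyond its SD. In PGL-1::GFP and GFP the SD exceeds the mean, so leaving out genes could not. Of the values recomputed for comparisons 70 kept their side and 19 moved, all of them given here, and all 86 single-gene values kept their side and sign. This tally does not measure stability, as the core share of either of 2 libraries always lies within the SD of their mean. The 70 also hold the counts of 0 histone genes called, from fits that called at most 3 of all genes. A fit with the replicate number of the column names as a replicate block, added after the data were seen, also called 0 histone genes and 0 of all genes in each contrast, with 26, 5 and 4 of all genes at an unadjusted p under 0.05 (MEG-3::GFP over GFP, PGL-1::GFP over GFP and MEG-3::GFP over PGL-1::GFP). Whether libraries with the same number were handled together is not given and was not tested. The differences between replicates 1 and 2 correlated over the 2033 tested genes at 0.0684 (MEG-3::GFP with PGL-1::GFP), -0.0379 (MEG-3::GFP with GFP) and 0.187 (PGL-1::GFP with GFP). The planned count of genes by sequence identity of copies was not run, since no sequence was used. Depth limits all comparisons with GFP, where 3 reads are worth 113 and 214 CPM.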
